A study of Homo sapiens with 12 samples.

Results

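N-glycosylation begins with a lipid-linked sugar. Enzymes on the cytosolic and then the lumenal face of the endoplasmic reticulum (ER) build an oligosaccharide on dolichol phosphate, the oligosaccharyltransferase (OST) moves it to asparagines of entering proteins, and glucosidases, mannosidases and GlcNAc transferases then trim and branch it. Epithelial cells such as those of the mammary gland use this route for adhesion proteins, growth factor receptors and secreted proteins. The 41 genes described here cover these steps and were chosen by name: every array probe whose annotation symbol is one of them was taken. Of the 41, 39 had a named probe, 37 were tested out of 10368 tested named genes, and PMM2 and SRD5A3 were not analysed here.

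The data come from MCF10A, an established human mammary epithelial line that is not transformed, grown with serum, and hybridised to 12 Illumina bead arrays. Cells expressing the intracellular domain (ICD) of ERBB4 in its CYT2 form (4 arrays) or its CYT1 form (4 arrays) were compared with cells carrying a control vector (VEC, 4 arrays). ERBB4 is a receptor tyrosine kinase whose ICD can be released by cleavage, and the CYT1 form holds a short cytoplasmic stretch with a binding site for phosphoinositide 3-kinase that CYT2 lacks. All groups share the MCF10A background, and whether each line was 1 clone or a pool, and which promoter drives the ICD, is not given in the sources used here. The comparisons ask which genes differ in cells with either ICD against VEC, and whether the ICD forms differ from each other.

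The titles give each group 2 biological numbers with 2 technical numbers each, so 2 replicates per group were tested, each the mean of 2 arrays. Nothing says that the replicates came from separate cultures, so the p-values measure only the spread between these samples, which may be technical. The arrays went against these labels in 1 respect. Within a group, arrays sharing the technical number correlated at 0.994 to 0.996 over probes, against 0.993 to 0.995 for arrays sharing the biological number and 0.993 to 0.995 for arrays sharing neither. In CYT2 and CYT1 the pairs sharing the technical number were above all other pairs, and in VEC the ranges overlapped. The member counts are therefore given with the technical number taken as the replicate as well. Between 37.0% and 39.6% of the 47323 probes were detected per array, meaning brighter than negative control probes at a detection p under 0.05. The single ERBB4 probe was detected on 0 of 12 arrays, and whether it lies in the expressed ICD is not given in the sources used here, so it does not check the labels.

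Cell type markers were read beside the members. Of 10 basal mammary epithelial markers, 6 had a named probe, and all 6 were detected on all 12 arrays. Their summed signals were 12028 to 13138 in CYT2 arrays, 12761 to 13481 in CYT1 arrays and 12297 to 12883 in VEC arrays. These sums hide opposite moves. Log2 fold changes of the 6 ran from -0.42 to 0.95 in CYT2 against VEC and from -0.80 to 1.60 in CYT1 against VEC. In CYT2 against CYT1 they ran from -1.09 to 0.71. The 7 fibroblast markers summed to 1974 to 2179 in CYT2 arrays and 3793 to 4271 in CYT1 arrays, against 301 to 336 in VEC arrays. That sum was mostly DCN, which averaged 10.83 in CYT2, 11.86 in CYT1 and 6.79 in VEC on the log2 scale, while COL3A1, PDGFRB and LUM were detected on 0 arrays. Log2 fold changes of the 3 tested fibroblast markers ran from -0.20 to 4.045 in CYT2 against VEC, with a median of 1.01. In CYT1 against VEC they ran from -0.24 to 5.07, with a median of 1.51. DCN was thus not the only fibroblast marker that was higher. The leukocyte list summed to 2149 to 2340 in CYT2 arrays, 2258 to 2388 in CYT1 arrays and 3069 to 3212 in VEC arrays through CD14 and CD68, with PTPRC and CD3D detected on 0 arrays, and of the endothelial markers CDH5 and VWF were detected on 0 arrays. The part of these marker shifts in the results below was not tested. In bulk RNA, fewer cells of a type and less RNA per cell cannot be told apart.

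In cells with either ICD, enzymes that build the lipid-linked sugar and the branching enzymes were lower more often than higher. The OST's related oxidoreductase subunits MAGT1 and TUSC3 were higher. A member is called when limma's Benjamini-Hochberg adjusted p, over all 17356 probes tested, was under 0.05. In CYT2 cells 3 members were called higher (8.11% of 37) and 12 lower (32.4%), where 16.1% of all tested genes were higher and 17.6% lower. In CYT1 cells 4 were called higher (10.8%) and 13 lower (35.1%), where 18.6% of all tested genes were higher and 20.7% lower. Under these settings the share of members called lower was above that of all genes, and the share called higher below it. Over the 19 alternative settings, the lower share was above that of all genes in 14 for CYT2 and 18 for CYT1, and at or below it in 5 and 1. Leaving out a replicate of the group not compared gave the same calls as fitting only the 2 groups compared. The 19 are therefore not all separate fits, and counts out of 19 weigh that fit more than once. The median log2 fold change of the 37 members was -0.25 in CYT2 and -0.22 in CYT1, against -0.05 over all tested genes in each. With each array scaled to a common median, 2 members were higher and 19 lower in CYT2 (51.4% lower, against 24.8% of all genes) and 3 higher and 21 lower in CYT1 (56.8%, against 29.6%). On the deposited log2 values 3 were higher and 21 lower in CYT2 (56.8%, against 30.5%) and 3 higher and 25 lower in CYT1 (67.6%, against 32.6%). The median scaling itself moved the median of all genes to -0.13 in CYT2 and -0.15 in CYT1.

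These counts rest on few samples. With the technical number as the replicate, 3 members were higher and 5 lower in CYT2 (13.5% lower, against 13.5% of all genes) and 3 higher and 9 lower in CYT1 (24.3%, against 16.9%). Without VEC replicate 1, 3 were lower in CYT2 (8.11%, against 8.39%) and 6 in CYT1 (16.2%, against 11.8%). Without VEC replicate 2, 2 were lower in CYT2 (5.41%, against 8.44%) and 6 in CYT1 (16.2%, against 11.8%). Without CYT2 replicate 1, 4 were lower in CYT2 (10.8%, against 8.88%), and without CYT2 replicate 2, 2 were (5.41%, against 9.10%). Without CYT1 replicate 1, 8 were lower in CYT1 (21.6%, against 13.6%), and without CYT1 replicate 2, 6 were (16.2%, against 13.2%). On the first technical arrays alone 3 were lower in CYT2 (8.11%, against 8.06%) and 3 in CYT1 (8.11%, against 11.6%), and on the second alone 2 in CYT2 (5.41%, against 8.92%) and 6 in CYT1 (16.2%, against 11.96%). The surplus of lower members in CYT2 was thus absent from several of these smaller fits, where fewer of all genes were called as well.

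Both comparisons use the same VEC arrays, so their calls are not independent of each other. Called lower in both were 10 members: GMPPB, DOLK, ALG13, ALG11, ALG12, ALG6, ALG8, MGAT1, MGAT2 and MGAT5. Higher in both were PMM1, TUSC3 and MAGT1. ALG5 and MAN1A2 were called lower in CYT2 alone, DPM2, ALG1 and RPN1 lower in CYT1 alone, and PRKCSH higher in CYT1 alone, but none of these was called when the ICD forms were tested against each other. The other 18 tested members were called in neither. Among called members, the ICD arrays overlapped the VEC arrays for ALG13, ALG11 and ALG12 in CYT2 and for MGAT2 in CYT1. The others lay wholly above or wholly below VEC. How often this holds for all called genes was not counted, so it describes the members only. A change of 1.5-fold was reached by 3 called members in CYT2 and 5 in CYT1. The share of all tested genes called at that size was not counted, so this too describes the members only.

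**Figure D1:**
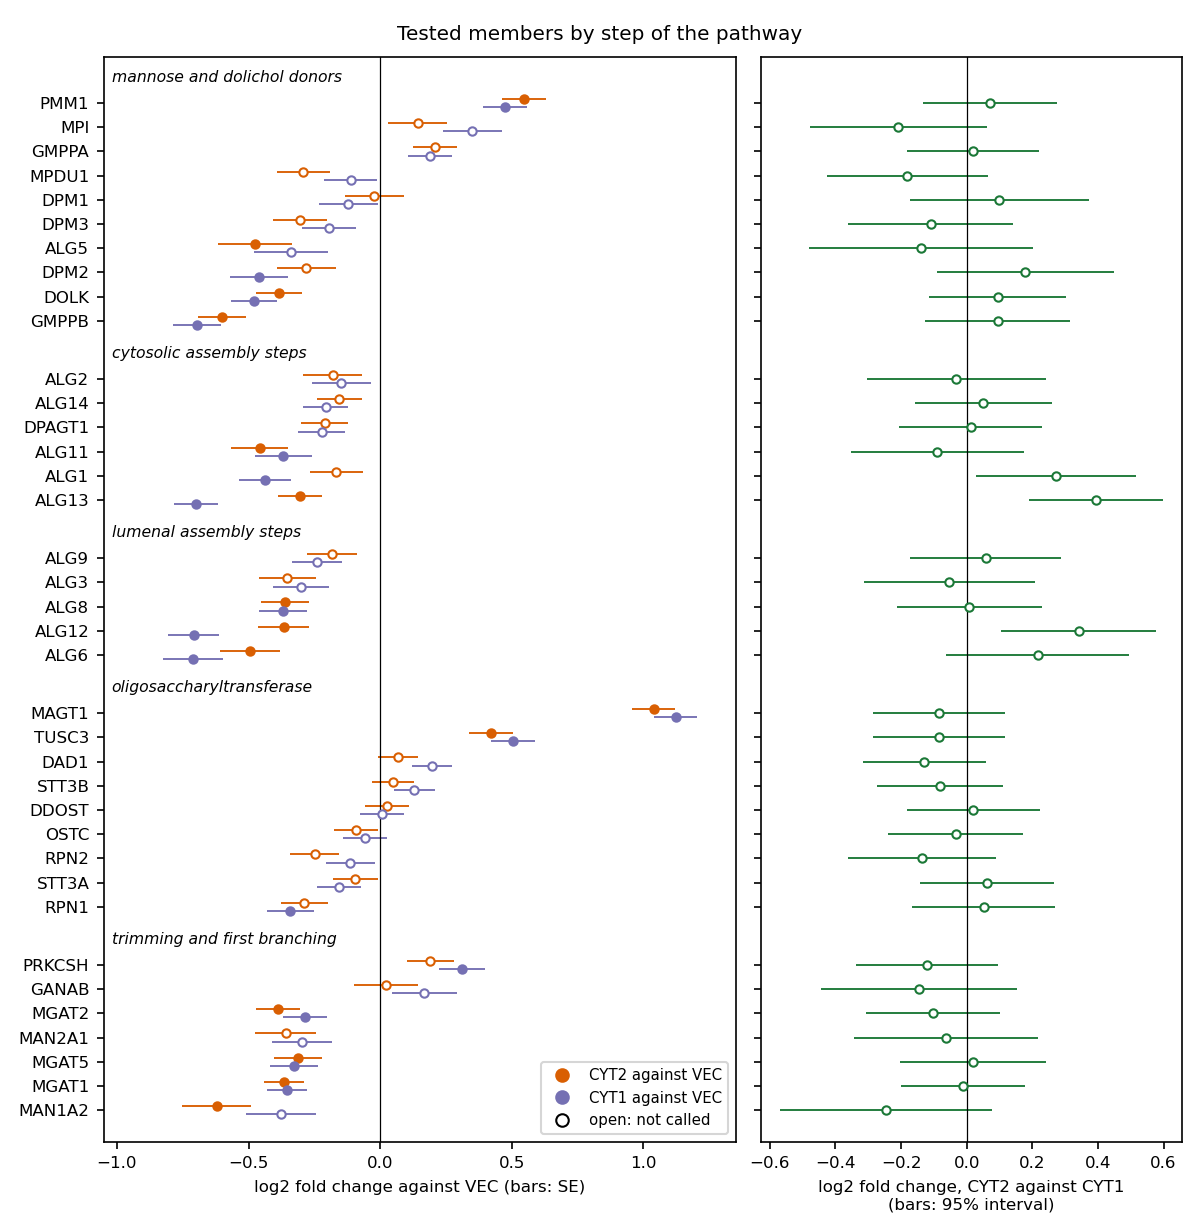
Log2 fold change of the 37 tested members, grouped by step. Left, CYT2 against VEC and CYT1 against VEC with standard errors (SE, 2 replicates per group), filled where called; right, CYT2 against CYT1 with 95% intervals, where no member was called. MAGT1 stands furthest to the right at 1.04 and 1.12. By their brightest probes, all 11 tested assembly enzymes lie left of 0 in both comparisons. The median of all tested genes was also below 0, at -0.05 in each. The other tested ALG13 probe, dim and not drawn, had positive changes in both.

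The promoters of the 3 members with the largest changes called the same way in both ICD comparisons are shown, to set genes that moved in opposite directions side by side upstream of their starts. They are the 250 bases before the start of each gene, 5′ to 3′ on the gene's strand, from RefSeq on GRCh38.p14, and capitals mark CCAAT boxes on either strand (CCAAT or ATTGG). MAGT1 (chrX:77895436-77895685, minus strand) is 54.4% GC, GMPPB (chr3:49723952-49724201, minus strand) 72.8% and ALG6 (chr1:63367377-63367626, plus strand) 74.0%, where the median over all promoters in the table is 58.0%.
MAGT1: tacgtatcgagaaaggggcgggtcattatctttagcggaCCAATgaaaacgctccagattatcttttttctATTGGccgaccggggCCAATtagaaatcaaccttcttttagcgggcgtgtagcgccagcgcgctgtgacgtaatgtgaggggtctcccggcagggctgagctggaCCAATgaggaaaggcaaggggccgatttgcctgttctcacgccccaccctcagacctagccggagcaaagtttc
GMPPB: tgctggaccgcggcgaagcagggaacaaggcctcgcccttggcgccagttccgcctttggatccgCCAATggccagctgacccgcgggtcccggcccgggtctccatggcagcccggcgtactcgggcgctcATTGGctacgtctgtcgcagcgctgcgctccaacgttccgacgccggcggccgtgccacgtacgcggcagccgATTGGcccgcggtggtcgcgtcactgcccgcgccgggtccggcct
ALG6: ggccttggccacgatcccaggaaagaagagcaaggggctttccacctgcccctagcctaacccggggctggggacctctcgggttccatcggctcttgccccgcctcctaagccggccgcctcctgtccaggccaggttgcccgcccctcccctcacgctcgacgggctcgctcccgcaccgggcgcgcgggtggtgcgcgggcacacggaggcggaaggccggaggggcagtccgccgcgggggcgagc

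A promoter was in the table for 33 of the 37 tested members. A CCAAT box was in 15 of these 33 (45.5%), against 35.8% of the 8421 promoters of tested genes and 33.0% of all 27305 promoters. MAGT1, which rose, had 4 matches and GMPPB, which fell, had 3, while ALG6, which fell, had 0. The box was thus in a promoter of either direction. Of the members called in both comparisons, 7 of the 10 lower genes and both higher genes with a promoter here held it. The ER stress element (CCAAT and CCACG with 9 bases between, which contains the CCAAT box) was in 1 of 33, the mannosyltransferase gene ALG12, against 0.166% of tested genes and 0.0806% of all promoters. The ER stress element II (ATTGG and CCACG with 1 base between, which contains the reverse complement of CCAAT) was in 0 of 33 member promoters and 0.119% of tested genes. The unfolded protein response element TGACGTGG was in 0 of 33 and 0.736% of tested genes, and the cyclic AMP response element TGACGTCA in 0 of 33 and 3.03% of tested genes. Both strands were searched for each, and a match or its lack in these windows describes the letters only.

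The donor steps make the activated sugars and the lipid carrier. Of 10 tested members, 1 was called higher and 3 lower in CYT2, and 1 higher and 3 lower in CYT1. The lower share was 30% in each, against 17.6% and 20.7% of all tested genes. The higher share was 10% in each, against 16.1% and 18.6%. Values below are normalised log2 signals, listed as replicate 1 arrays 1 and 2 and then replicate 2 arrays 1 and 2, fold changes are on the log2 scale, and their errors are SE with 2 replicates per group. PMM1, a phosphomannomutase that converts one mannose phosphate into another, read 10.12, 10.31, 10.46 and 10.17 in CYT2, 10.23, 10.13, 10.19 and 10.22 in CYT1, and 9.72, 9.77, 9.73 and 9.65 in VEC. Every ICD array was above every VEC array. PMM1 rose by 0.54 ± 0.08 in CYT2 (adjusted p = 0.00571, called in 19 of 19 alternative settings) and by 0.47 ± 0.08 in CYT1 (adjusted p = 0.00743, called in 18 of 19).

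GMPPB, the catalytic subunit of the enzyme that makes GDP-mannose, read 9.17, 9.20, 9.35 and 8.98 in CYT2, 9.06, 9.20, 9.18 and 8.88 in CYT1, and 9.82, 9.87, 9.51 and 9.90 in VEC. All ICD arrays were below all VEC arrays, the lowest VEC array being replicate 2 array 1. GMPPB changed by -0.60 ± 0.09 in CYT2 (adjusted p = 0.00542) and -0.70 ± 0.09 in CYT1 (adjusted p = 0.00254), or 1.52-fold and 1.62-fold lower. It was called in 18 of 19 alternatives in CYT2, the exception being the first technical arrays alone (-0.41, adjusted p = 0.116), and in 19 of 19 in CYT1. Its partner GMPPA, a regulatory subunit of the same enzyme, was not called, at 0.21 ± 0.08 in CYT2 (adjusted p = 0.107) and 0.19 ± 0.08 in CYT1 (adjusted p = 0.126).

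DOLK, the kinase that phosphorylates dolichol, read 8.34, 8.56, 8.40 and 8.23 in CYT2, 8.34, 8.22, 8.47 and 8.10 in CYT1, and 8.81, 8.70, 8.75 and 8.80 in VEC. The ICD groups overlapped each other and both lay below VEC. DOLK fell by 0.38 ± 0.09 on the log2 scale in CYT2 (adjusted p = 0.0199, called in 13 of 19 alternatives) and by 0.48 ± 0.09 in CYT1 (adjusted p = 0.00785, called in 18 of 19). ALG5, which makes dolichol phosphate glucose for the lumenal glucosyltransferases, read 9.90, 10.19, 9.66 and 9.85 in CYT2, 10.01, 9.87, 10.23 and 10.04 in CYT1, and 10.54, 10.41, 10.24 and 10.30 in VEC. The CYT2 arrays spread over a wider range than the VEC arrays, and the nearest arrays of the groups were close. Its fold change was -0.48 ± 0.14 in CYT2 (adjusted p = 0.0473, called in 9 of 19 alternatives) and -0.34 ± 0.14 in CYT1 (adjusted p = 0.109, not called).

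Dolichol phosphate mannose synthase has the catalytic subunit DPM1 and the membrane subunits DPM2 and DPM3. DPM2 was not called in CYT2, at -0.28 ± 0.11 (adjusted p = 0.108), and fell by 0.46 ± 0.11 in CYT1 (adjusted p = 0.0221). DPM1 had -0.02 ± 0.11 and -0.12 ± 0.11, and DPM3 had -0.30 ± 0.10 and -0.19 ± 0.10, in CYT2 and CYT1, none of them called. MPDU1, needed for the use of dolichol-linked sugars in the lumen, had -0.29 ± 0.10 in CYT2 and -0.11 ± 0.10 in CYT1. MPI, which makes mannose phosphate from a fructose phosphate, had 0.14 ± 0.11 in CYT2 and 0.35 ± 0.11 in CYT1 (adjusted p = 0.0528), also not called. So the synthase's catalytic subunit stood near VEC, and no donor member other than PMM1 was called higher.

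**Figure D2:**
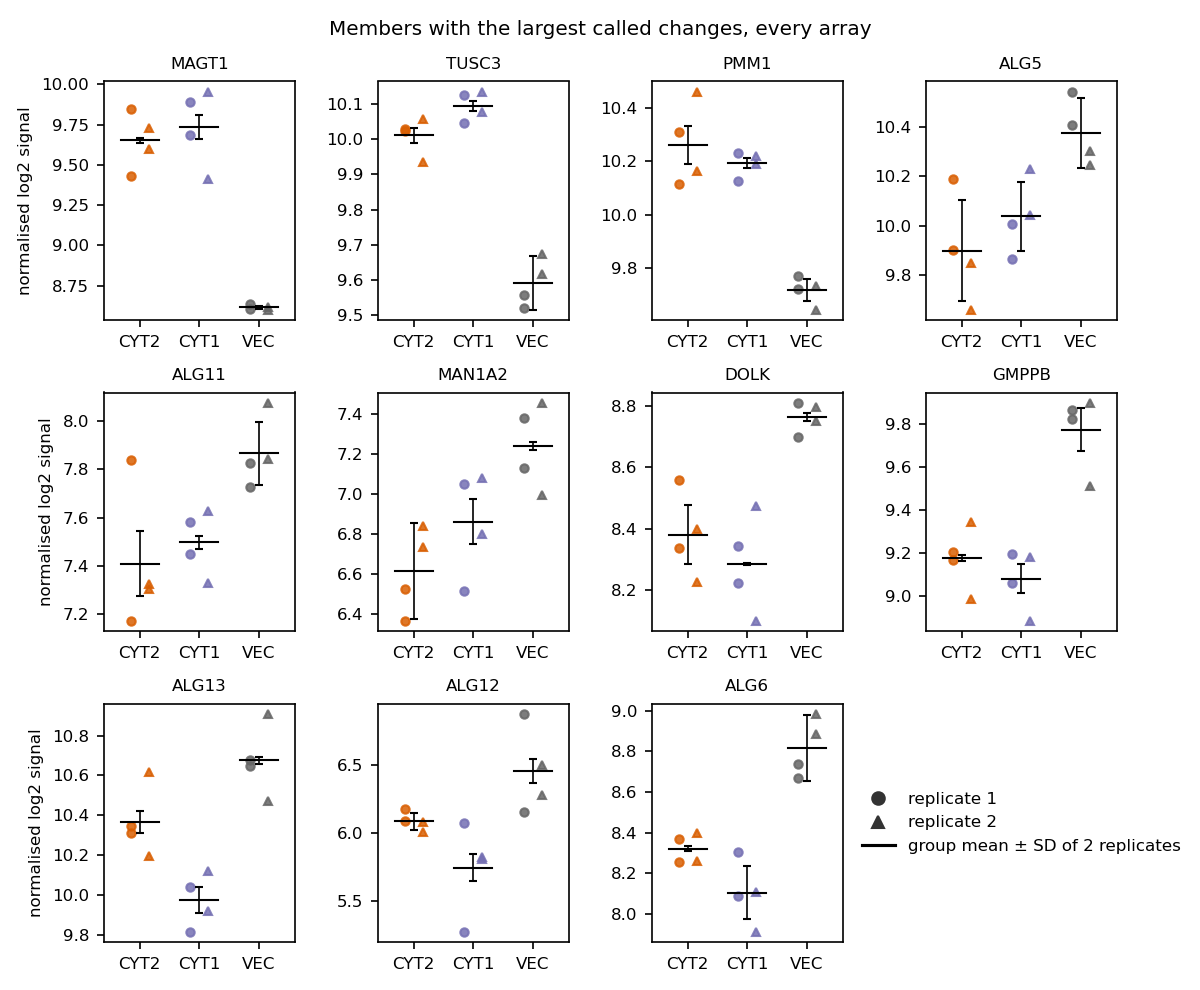
Normalised log2 signal of the 11 members with the largest called changes on each of the 12 arrays, CYT2 and CYT1 left of VEC; circles and triangles are replicates 1 and 2, lines and bars the mean ± SD of the 2 replicates of a group. MAGT1, TUSC3 and PMM1 lie higher in the ICD arrays than in the VEC arrays, and the other 8 have lower group means in both ICD groups than in VEC. The vertical axes differ between panels and do not start at 0.

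On the cytosolic face, 2 of 6 tested members were called lower in CYT2 and 3 in CYT1, and 0 higher. The lower shares were 33.3% and 50%, against 17.6% and 20.7% of all tested genes. By their brightest probes all 6 had negative fold changes, from -0.46 to -0.16 in CYT2 and from -0.70 to -0.15 in CYT1. ALG11, which adds mannoses to the growing chain, read 7.17, 7.84, 7.30 and 7.32 in CYT2, 7.45, 7.58, 7.63 and 7.33 in CYT1, and 7.72, 7.82, 8.07 and 7.84 in VEC. Array 2 of CYT2 replicate 1 reached the VEC range, while the other 7 ICD arrays were below it. Its fold change was -0.46 ± 0.11 in CYT2 (adjusted p = 0.0245, called in 15 of 19 alternatives) and -0.37 ± 0.11 in CYT1 (adjusted p = 0.0423, called in 10 of 19).

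ALG13 carries the catalytic site for adding the second GlcNAc, on ALG14 as its membrane anchor. Its brightest probe read 10.35, 10.31, 10.62 and 10.20 in CYT2, 10.04, 9.82, 10.12 and 9.92 in CYT1, and 10.68, 10.65, 10.91 and 10.47 in VEC. CYT1 was lowest with no overlap with either other group, and CYT2 lay between and overlapped VEC. Against VEC it changed by -0.31 ± 0.08 in CYT2 (adjusted p = 0.039, called in 6 of 19 alternatives) and -0.70 ± 0.08 in CYT1 (adjusted p = 0.00194, called in 18 of 19). The alternative that ended the CYT1 call averages all tested probes of the gene, which disagree in direction.

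ALG1, which adds the first mannose, had -0.17 ± 0.10 in CYT2 (adjusted p = 0.256) and fell by 0.44 ± 0.10 in CYT1 (adjusted p = 0.018). DPAGT1, which starts the chain and is the target of tunicamycin, had -0.21 ± 0.09 in CYT2 and -0.22 ± 0.09 in CYT1, with all 8 ICD arrays below the VEC arrays and no call (adjusted p = 0.128 and 0.101). ALG14 had -0.16 ± 0.09 and -0.21 ± 0.09, and the mannosyltransferase ALG2, detected on 9 of 12 arrays, had -0.18 ± 0.11 and -0.15 ± 0.11, in CYT2 and CYT1. The step that starts the chain was thus not called by its brightest probe, and the later cytosolic steps were in part.

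On the lumenal face, 3 of 5 tested members were called lower in CYT2 and the same 3 in CYT1: ALG12, ALG6 and ALG8. That is 60% in each, against 17.6% and 20.7% of all tested genes, and rests on few genes. ALG6, which adds the first glucose, read 8.37, 8.26, 8.26 and 8.40 in CYT2, 8.31, 8.09, 8.11 and 7.91 in CYT1, and 8.67, 8.74, 8.98 and 8.88 in VEC. Every ICD array was below every VEC array. ALG6 changed by -0.50 ± 0.11 in CYT2 (adjusted p = 0.0223, called in 13 of 19 alternatives) and -0.71 ± 0.11 in CYT1 (adjusted p = 0.00528, called in 19 of 19), or 1.41-fold and 1.64-fold lower.

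ALG12, a mannosyltransferase, read 6.18, 6.09, 6.08 and 6.01 in CYT2, 6.08, 5.28, 5.83 and 5.81 in CYT1, and 6.16, 6.88, 6.51 and 6.28 in VEC. It was detected on 11 of 12 arrays, array 2 of CYT1 replicate 1 being the exception, and the highest CYT2 array passed the lowest VEC array. The fold change was -0.37 ± 0.10 in CYT2 (adjusted p = 0.0343, called in 5 of the 18 alternatives that test it) and -0.71 ± 0.10 in CYT1 (adjusted p = 0.00301, called in 17 of 18). ALG8, the next glucosyltransferase, fell by 0.36 ± 0.09 in CYT2 (adjusted p = 0.029) and by 0.37 ± 0.09 in CYT1 (adjusted p = 0.0233), and its second tested probe was called lower in both as well. The mannosyltransferases ALG3 (-0.35 ± 0.11 and -0.30 ± 0.11) and ALG9 (-0.18 ± 0.09 and -0.24 ± 0.09) were not called in CYT2 or CYT1. ALG10, which adds the last glucose, was detected on 1 CYT2 array, 0 CYT1 arrays and 2 VEC arrays and was not tested.

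The OST was the one step with more calls upward than downward: of 9 tested subunits 2 were higher and 0 lower in CYT2, and 2 higher and 1 lower in CYT1. The 2 are 22.2% of the subunits, near the 16.1% and 18.6% of all tested genes called higher in CYT2 and CYT1, and whether the balance differs from the other steps was not tested. MAGT1 and TUSC3 are related oxidoreductases that take each other's place in the OST complex built on STT3B, and MAGT1 is also tied to magnesium uptake. MAGT1 read 9.43, 9.85, 9.60 and 9.73 in CYT2, 9.69, 9.89, 9.41 and 9.95 in CYT1, and 8.64, 8.61, 8.62 and 8.60 in VEC. The ICD arrays were all far above the tightly grouped VEC arrays. Within each of the 4 ICD replicates, array 2 was higher than array 1, while in VEC array 2 was slightly lower.

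MAGT1 had the largest change of any member, 1.04 ± 0.08 in CYT2 (adjusted p = 0.000616) and 1.12 ± 0.08 in CYT1 (adjusted p = 0.000346), or 2.05-fold and 2.18-fold higher. It was called in 19 of 19 alternatives in each comparison, with log2 fold changes from 0.76 to 1.19 in CYT2 and from 0.82 to 1.32 in CYT1. From the first technical arrays alone the change in CYT2 was 0.89, and from the second alone 1.19. TUSC3 read 10.03, 10.03, 9.94 and 10.06 in CYT2, 10.13, 10.05, 10.13 and 10.08 in CYT1, and 9.52, 9.56, 9.62 and 9.67 in VEC. Both ICD groups lay wholly above VEC. TUSC3 rose by 0.42 ± 0.08 in CYT2 (adjusted p = 0.0131, called in 13 of 19 alternatives) and by 0.51 ± 0.08 in CYT1 (adjusted p = 0.00573, called in 19 of 19). Among the alternatives that ended the CYT2 call were median scaling (0.28, adjusted p = 0.0801) and the first technical arrays alone (0.41, adjusted p = 0.0525).

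The catalytic subunits were not called. STT3A, the subunit that works as proteins enter the ER, had -0.09 ± 0.08 in CYT2 and -0.16 ± 0.08 in CYT1, with 95% intervals of -0.30 to 0.11 and -0.36 to 0.05. STT3B, which serves sites that STT3A skips, had 0.05 ± 0.08 and 0.13 ± 0.08, with intervals of -0.14 to 0.24 and -0.06 to 0.32. These intervals leave room for changes of about the size called in other members, so the subunits are not shown to be unchanged. Of the shared subunits, RPN1 had -0.29 ± 0.09 in CYT2 (adjusted p = 0.0554) and fell by 0.34 ± 0.09 in CYT1 (adjusted p = 0.0292), with no array overlap with VEC in either. RPN2 had -0.25 ± 0.09 and -0.11 ± 0.09, DDOST had 0.03 ± 0.08 and 0.01 ± 0.08, and DAD1 had 0.07 ± 0.08 and 0.20 ± 0.08, in CYT2 and CYT1. OSTC, a subunit of the STT3A complex, had -0.09 ± 0.08 and -0.06 ± 0.08 by its brightest probe.

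Trimming and first branching had 7 tested members, of which 0 were called higher and 4 lower in CYT2, and 1 higher and 3 lower in CYT1. The lower shares were 57.1% and 42.9%, against 17.6% and 20.7% of all tested genes. The higher shares were 0% and 14.3%, against 16.1% and 18.6%. The branching GlcNAc transferases MGAT1, MGAT2 and MGAT5 were called lower in both, but not in every alternative. MGAT1, which opens the way from high-mannose to branched glycans, fell by 0.37 ± 0.08 in CYT2 (adjusted p = 0.0166) and by 0.35 ± 0.08 in CYT1 (adjusted p = 0.0158), called in 13 and 12 of 19 alternatives. Its arrays ran from 10.37 to 10.75 in CYT2 and from 10.49 to 10.62 in CYT1, all below the VEC arrays at 10.87 to 10.95. MGAT2, which starts the second branch, had -0.39 ± 0.08 in CYT2 (adjusted p = 0.0179) and -0.29 ± 0.08 in CYT1 (adjusted p = 0.0415), where its arrays overlapped VEC, called in 14 and 7 of 19 alternatives. MGAT5, which adds a further branch tied to growth factor receptor and integrin glycans, had -0.31 ± 0.09 (adjusted p = 0.0475) and -0.33 ± 0.09 (adjusted p = 0.035) in CYT2 and CYT1, called in 6 and 8 of 19 alternatives.

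MAN1A2, a Golgi mannosidase that trims before branching, read 6.37, 6.52, 6.73 and 6.84 in CYT2, 7.05, 6.52, 7.08 and 6.80 in CYT1, and 7.38, 7.13, 7.45 and 7.00 in VEC. CYT2 lay wholly below VEC, and CYT1 overlapped it. The fold change was -0.62 ± 0.13 in CYT2 (adjusted p = 0.0171, called in 15 of 19 alternatives) and -0.38 ± 0.13 in CYT1 (adjusted p = 0.0719, not called here but called in 10 of 19 alternatives). Its relative MAN1A1 was detected on 1 CYT2 array, 2 CYT1 arrays and 0 VEC arrays and was not tested, and the later mannosidase MAN2A1 was not called (-0.36 ± 0.12 and -0.30 ± 0.12). Glucosidase II trims the glucoses, and its beta subunit PRKCSH was not called in CYT2 (0.19 ± 0.09, adjusted p = 0.157) and was higher in CYT1 (0.31 ± 0.09, adjusted p = 0.038, called in 5 of 19 alternatives). The catalytic alpha subunit GANAB had 0.02 ± 0.12 in CYT2 and 0.17 ± 0.12 in CYT1. The step's members thus split, with the branching enzymes lower and neither glucosidase II subunit lower.

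The ICD forms were compared directly, since a call against VEC in 1 form alone does not show a difference. No member was called in CYT2 against CYT1 by limma, where 0.241% of all tested genes were higher in CYT2 and 0.309% lower. The smallest adjusted p was 0.102, and 3 members, ALG13, ALG12 and ALG1, had an unadjusted p under 0.05. The share of all tested genes with such a p was not counted. ALG13 differed by 0.39 ± 0.08 (95% interval 0.19 to 0.60, adjusted p = 0.102), with all 4 CYT2 arrays above all 4 CYT1 arrays, and it was called in 4 of 19 alternatives. Over the 19, its adjusted p ran from 0.00501 to 0.895. The other tested ALG13 probe, which is dim, went the other way at -0.34 ± 0.13 and was not called either. ALG12 differed by 0.34 ± 0.10 (interval 0.11 to 0.58, adjusted p = 0.164) and ALG1 by 0.27 ± 0.10 (interval 0.03 to 0.51, adjusted p = 0.241). For MAGT1 the difference was -0.08 ± 0.08, with an interval of -0.29 to 0.12. The intervals reached 0.186 to 0.341 to either side of the difference, with a median of 0.221, so smaller differences between the ICD forms could not be told from 0 with these arrays.

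Several members have more than 1 tested probe: 51 of the 61 member probes were tested, and 13 members had over 1. ALG13 probes differed in direction. The probe designed to another transcript (ILMN_1724341) was detected on 3 CYT2 arrays, 3 CYT1 arrays and 0 VEC arrays, and read 5.82, 5.65, 5.36 and 5.49 in CYT2, 5.71, 6.24, 5.48 and 6.25 in CYT1, and 4.98, 5.11, 5.14 and 5.30 in VEC. It was at least 1.06-fold higher in CYT2 and at least 1.34-fold higher in CYT1. These bounds set the mean of the ICD arrays against, per VEC array, the higher of the dimmest detected signal and the probe's own. This probe passed the detection filter only through the ICD groups, where it is high, so its difference is a description and not support for a rise.

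Other second probes differed mainly in whether they were called. MAN1A2 had a dimmer probe (ILMN_2075507), detected on 2 CYT2, 2 CYT1 and 4 VEC arrays, that averaged 5.58 in CYT2 and 5.39 in CYT1, against 6.40 in VEC. It passed the detection filter only through VEC, where it is high, so this too is a description. The dimmer DPAGT1 probe was called lower in both (-0.31 ± 0.08 in CYT2 and -0.27 ± 0.08 in CYT1). Its values split by technical array in the ICD groups, at 7.69 and 7.71 on first arrays and 7.02 and 7.13 on second arrays in CYT2 and at 7.65 and 7.61 against 7.30 and 7.15 in CYT1, but not in VEC, at 7.71 and 7.76 against 7.67 and 7.68. The dimmer ALG14 probe was also called lower in both, at -0.40 ± 0.10 and -0.53 ± 0.10. In CYT1 it too split by technical array, at 7.64 and 7.86 on first arrays and 7.01 and 7.00 on second arrays. Its CYT1 arrays overlapped the VEC arrays, at 7.68 to 8.09. Of 3 OSTC probes, the dimmest (ILMN_2056167) was lower in CYT2 (-0.46 ± 0.11, adjusted p = 0.0275) and not called in CYT1 (-0.33 ± 0.11, adjusted p = 0.0675), while the other two were not called. The second GMPPB probe was not called in CYT2 (-0.34 ± 0.12, adjusted p = 0.0793) and was lower in CYT1 (-0.52 ± 0.12), and the second MGAT5 probe likewise (-0.14 ± 0.09 in CYT2, -0.39 ± 0.09 in CYT1). The second PRKCSH probe was not called, at 0.48 ± 0.15 in CYT2 (adjusted p = 0.0555) and 0.28 ± 0.15 in CYT1. The second DPM1 probe, at 0.19 ± 0.12 and 0.03 ± 0.12, had the other sign than the first, and none of these was called.

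**Figure D3:**
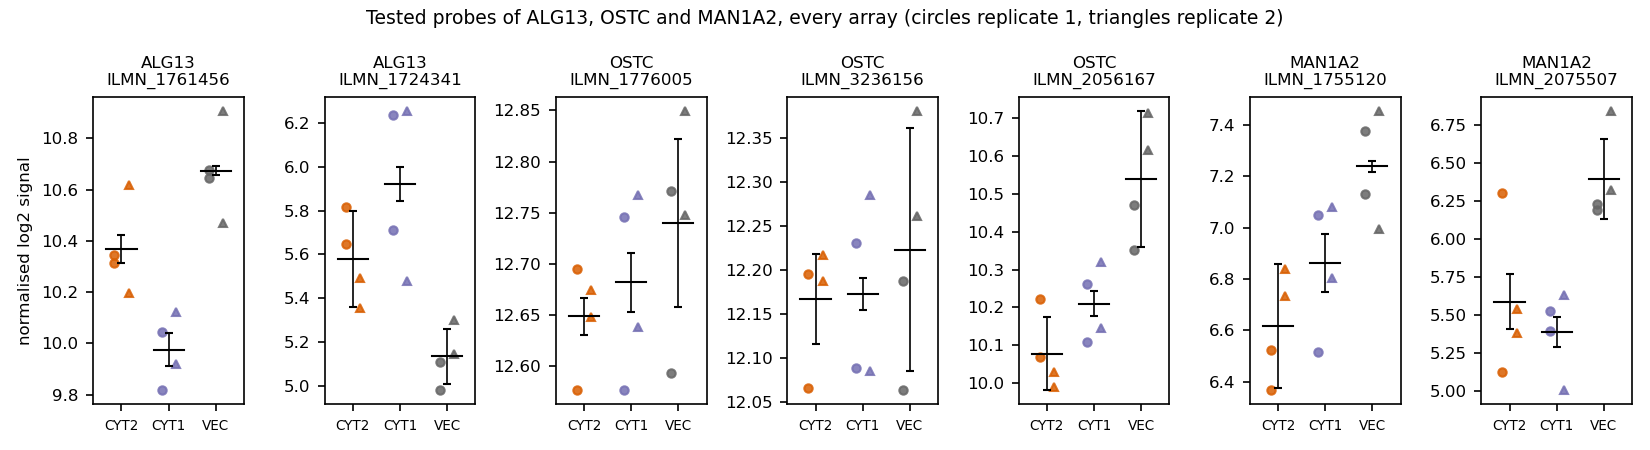
Normalised log2 signal of every tested probe of ALG13, OSTC and MAN1A2 on the 12 arrays, CYT2 and CYT1 left of VEC; circles and triangles are replicates 1 and 2, lines and bars the mean ± SD of 2 replicates. The ALG13 probes order the groups in opposite ways, and 1 of the 3 OSTC probes separates the ICD arrays from VEC. Vertical axes differ between panels.

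Genes around the members were counted from lists of textbook roles. Other genes of dolichol and sugar donor supply had 14 tested, with 1 higher and 5 lower in CYT2 and 2 higher and 5 lower in CYT1 (35.7% lower in each, against 17.6% and 20.7% of all genes; median -0.25 and -0.16). The lower genes included SLC35A3, the Golgi transporter of UDP-GlcNAc (-0.71 ± 0.08 in CYT2, -0.44 ± 0.08 in CYT1), and SLC35C1, the transporter of GDP-fucose (-0.63 ± 0.10 and -0.42 ± 0.10). GMDS and GFUS make GDP-fucose from GDP-mannose, and both were lower, GMDS at -0.56 ± 0.11 in CYT2 and -0.65 ± 0.11 in CYT1 and GFUS at -0.61 ± 0.10 and -0.73 ± 0.10. UGP2, which makes UDP-glucose, was higher in both (0.39 ± 0.09 and 0.48 ± 0.09). DOLPP1, which recycles the dolichol carrier, was not called in CYT2 (-0.31 ± 0.10) and was lower in CYT1 (-0.52 ± 0.10). The remaining OST and translocon-associated genes gave 2 lower of 8 in CYT2 (25.0%, against 17.6%) and 1 of 8 in CYT1 (12.5%, against 20.7%). The ER lectin gene MLEC was lower in both (-0.36 ± 0.09 and -0.39 ± 0.09). The translocon-associated SSR1 was lower in CYT2 (-0.40 ± 0.09) and not called in CYT1 (-0.21 ± 0.09).

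Downstream in the ER, 3 of 15 tested genes of glycoprotein folding and mannose trimming were lower in CYT2 (20%, near the 17.6% of all tested genes) and 4 of 15 in CYT1 (26.7%, against 20.7%), and 0 higher (median -0.20 and -0.06). EDEM3, which acts in disposal of misfolded glycoproteins, had -0.61 ± 0.09 in CYT2 and -0.31 ± 0.09 in CYT1, both called. Its arrays overlapped VEC in both, at 7.36 to 7.76 in CYT2, 7.46 to 8.15 in CYT1 and 7.74 to 8.56 in VEC. The lectin chaperone CANX had -0.42 ± 0.09 and -0.38 ± 0.09, both called. MCFD2, which helps carry glycoproteins out of the ER, was lower in CYT2 (-0.57 ± 0.17) and not called in CYT1 (-0.36 ± 0.17). The folding sensor UGGT1 averaged 5.63 in CYT2 and 5.52 in CYT1, against 6.10 in VEC, with overlapping arrays. It was detected on 2 CYT2, 2 CYT1 and 4 VEC arrays. It met the detection filter through VEC, where it is high, so its lower call in CYT1, counted above, is a description. In the Golgi list, 3 of 12 tested branching and capping genes were lower in CYT2 (25.0%, against 17.6%) and 7 of 12 in CYT1 (58.3%, against 20.7%). None was higher (median -0.09 and -0.44), and none was called in CYT2 against CYT1. The galactosyltransferases B4GALT2 (-0.69 ± 0.15 and -0.65 ± 0.15) and B4GALT5 (-0.37 ± 0.08 and -0.62 ± 0.08) and the sialyltransferase ST3GAL4 (-0.65 ± 0.15 and -0.75 ± 0.15) were lower in both.

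**Figure D4:**
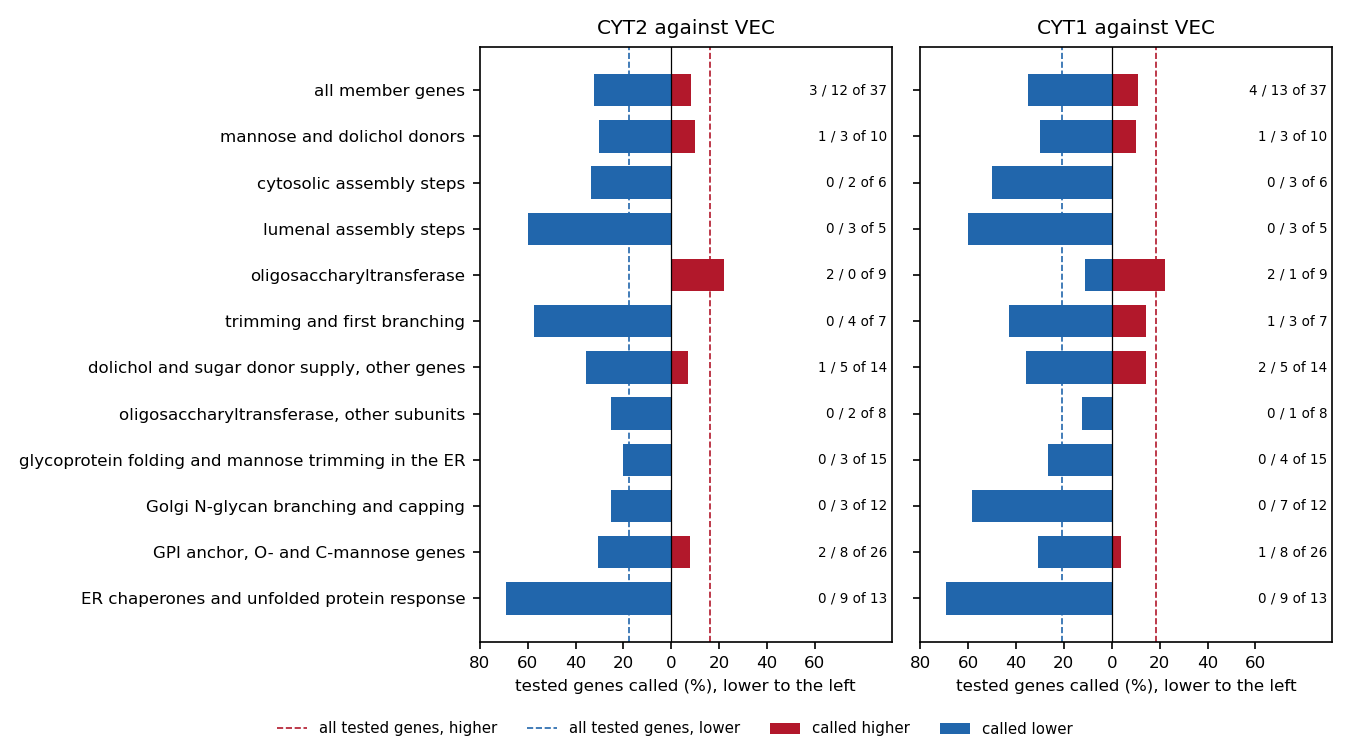
Percentage of tested genes called higher (right of 0) and lower (left of 0) in each step of the members and in each surrounding list, CYT2 against VEC and CYT1 against VEC; the figures at the right give higher / lower of tested, and dashed lines the percentages over all 10368 tested genes. Bars to the left exceed those to the right in every group except the 9 OST members.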

How the data were processed

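Total RNA of 12 arrays (3 groups of 2 biological replicates with 2 technical arrays each) was read as average bead intensity per probe, which the authors deposited without normalisation, as the name of the deposited table states. Detection p-values per probe were deposited beside them, and a deposited table gives log2 values of the same signals. It named the samples: each column equalled log2 of 1 signal column within 5e-09.

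Background was corrected by neqc (limma 3.58.1, R 4.3.3), which reads the level of the control probes from the detection p-values, adds 16 and then applies quantile normalisation. Probes detected on both arrays of at least 2 of 6 replicates were tested (17356). Technical arrays were averaged. One limma model with 3 groups gave 3 two-sided contrasts, adjusted over all probes. A gene is its brightest tested probe, so levels of different probes are not compared. Fold changes of dim probes are understated.

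The array annotation named 30113 probes with 1 symbol, 8 with several and 17202 with none. Values of every array are given for the 8 called members with the largest change per ICD comparison. The rule for other lists was up to 3 called genes with the largest change per comparison, filled to 2 by the smallest p. UGP2, PIGT, HSPA5, HSP90B1 and PDIA6 are named beyond it and were chosen after their values were seen. The members and lists were chosen with earlier results of these data known. The model was tested on simulated data. In all, 19 alternative settings were run, 2 of them chosen after seeing the data. Figures used Python 3.11.15 and matplotlib 3.10.9.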

Additional observations from a re-analysis of the deposited data

How the results depend on the processing

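Of all combinations of a member, a comparison and an alternative, 172 lost a call with the sign kept and 2 with the sign turned. Another 111 gained a call, with causes not tested unless given. The sign turned in 2 of 606 combinations of a called member, and in 66 of 1497 of a member not called. The 2 were ALG13 against VEC under the mean of its probes (0.0698 in CYT2, 0.0443 in CYT1), which join probes of opposite direction. Called in all 19 alternatives were PMM1 and MAGT1 in CYT2, and GMPPB, ALG6, TUSC3 and MAGT1 in CYT1. The count of members lower in CYT2, 12, became 19 under quantile scaling without background correction, 19 under median scaling, 21 on deposited log2 values, 5 without a detection filter, 3 and 2 on first and second technical arrays alone, and 5 with the technical number as the replicate. The count lower in CYT1, 13, became 21 under median scaling, 25 on deposited values, 7 without a filter, and 3 and 6 on first and second technical arrays alone, where first arrays alone called 2 higher. Without 1 replicate of the group not compared, the calls were those of the fit of only the 2 groups compared. Without 1 replicate of a compared group, the member median ran from -0.24 to -0.22 in CYT2 and from -0.24 to -0.20 in CYT1. A lone sample is assumed there to vary like the other groups. The member median was -0.37 in CYT2 and -0.41 in CYT1 under median scaling. In CYT2 against CYT1, 1 member, ALG13, was called higher under quantile scaling, on deposited values, with the biological replicate as a random block, and with the column letter as a term as well. With the biological number as a replicate block, the calls were 3 higher and 8 lower in CYT2, 3 higher and 10 lower in CYT1, and 0 in CYT2 against CYT1. The biological numbers did not pair samples: deviations from group means correlated at 0.0004 between CYT2 and VEC, -0.006 between CYT1 and VEC and 0.02 between CYT2 and CYT1. For the technical number the same correlations were higher, at 0.045, 0.063 and 0.057, and what they reflect was not tested. Signal over background limits ALG2, ALG12 and the dim second probes.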

Other observations

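Other users of dolichol phosphate mannose and the ER chaperones were counted in the same way. Of 26 tested genes of GPI anchor, O-mannose and C-mannose synthesis, 2 were higher and 8 lower in CYT2 and 1 higher and 8 lower in CYT1 (30.8% lower in each, against 17.6% and 20.7% of all tested genes; median -0.19 and -0.23, against -0.05 over all tested genes in each). PIGH and PIGY, subunits of the enzyme that starts the GPI anchor, had -0.61 ± 0.08 and -0.52 ± 0.08 in CYT2 and -0.59 ± 0.08 and -0.46 ± 0.08 in CYT1, and PIGW, which acylates inositol in the anchor precursor, had -0.56 ± 0.11 in CYT2 and -0.73 ± 0.11 in CYT1. Of the transamidase subunits, PIGU had -0.40 ± 0.10 in CYT2 and -0.53 ± 0.10 in CYT1, both called. The subunit PIGT was higher, at 0.30 ± 0.09 in CYT2 and 0.38 ± 0.09 in CYT1 (SE, 2 replicates per group).

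Of 13 tested genes of ER chaperones and the unfolded protein response, 9 were lower in CYT2 and 9 in CYT1, and 0 higher (median -0.40 and -0.46). That is 69.2% lower in each, against 17.6% and 20.7% of all tested genes. The chaperone HSPA5 (BiP) had -0.42 ± 0.08 in CYT2 (adjusted p = 0.0132) and -0.28 ± 0.08 in CYT1 (adjusted p = 0.0443). The stress-induced transcription factor gene DDIT3 had -0.53 ± 0.15 in CYT2 and -0.51 ± 0.15 in CYT1, the co-chaperone DNAJC3 had -0.49 ± 0.10 and -0.70 ± 0.10, and the ER protein SDF2L1 had -0.39 ± 0.09 and -0.67 ± 0.09, all called. DNAJB9 (-0.51 ± 0.10 and -0.46 ± 0.10), a further co-chaperone, and CRELD2 (-0.37 ± 0.08 and -0.58 ± 0.08) were called lower in both as well. HSP90B1 (0.20 ± 0.08 and 0.23 ± 0.08) and PDIA6 (0.14 ± 0.09 and 0.10 ± 0.09) were not called in CYT2 or CYT1. No gene of either list was called in CYT2 against CYT1.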
